A study of Mus musculus with 6 samples.

Results

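The genes described here encode FGF, HGF and EGF family receptors of the branching ureteric bud and the adaptor that docks to the FGF receptors. They were taken by name: Fgfr1, Fgfr2, Fgfr3, Fgfr4, Fgfrl1, Met, Egfr, Erbb2, Erbb3 and Frs2. All 10 are among the 17189 genes listed, and all 10 passed the filter on low counts. RNA was sequenced from ureteric bud cells sorted by flow cytometry from mouse embryos at E16.5. The 3 conditional knockout (cKO) libraries came from embryos of the genotype Hoxb7Cre-GFP+, Ash2l F/F, and the 3 control libraries from embryos of the genotype Hoxb7Cre-GFP+, Ash2l F/+. Both groups therefore carried the Hoxb7-driven Cre-GFP transgene and at least 1 floxed Ash2l allele, and no group without Cre was analysed here. The labels number the libraries as biological replicates without saying whether each is 1 embryo or a pool, so the spread behind each p-value may be partly technical.

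The ureteric bud is the epithelium that branches into the collecting system of the kidney. Beside RET, its branching uses receptor tyrosine kinases that share the RAS-ERK and PI3K routes. FGFR2 receives FGF7 and FGF10 made by the surrounding mesenchyme and passes the signal on through the docking protein FRS2, which is also bound by FGFR1. FGFRL1 binds FGFs but lacks a kinase domain. MET is the receptor for HGF, and in mouse ureteric bud it acts together with EGFR in branching. ERBB2 has no known ligand of its own and pairs with the other ERBB receptors, among them the neuregulin receptor ERBB3. ASH2L, encoded by the gene targeted in cKO, belongs to the MLL/SET methyltransferase complexes, which place methyl groups on histone H3 at promoters.

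Library totals were 9620235 to 9860475 counts in cKO and 10359475 to 10538314 counts in controls. A floor of 3 counts was 0.285 to 0.307 CPM (counts scaled to library size with TMM factors) in a single library and covers counting error only. Ash2l averaged 32.4 ± 12.6 CPM in cKO and 175 ± 15.6 CPM in controls (SD, n = 3 each). The library cKO replicate 3 stood apart: of 11738 genes with more than 10 counts in each of the other libraries it listed 1453 at 0, against at most 3 such genes in any other library. Met is one of these genes, so the values of the 10 genes and the counts of calls are given with and without that library. Y-linked genes also differed between the groups: Uty had 0 counts in each cKO library and 208 to 446 in controls, while Eif2s3y had 0, 0 and 504 counts in cKO and 439 to 815 in controls. In cKO replicates 1 and 2, Ddx3y, Uty, Kdm5d and Eif2s3y all had 0 counts, and every control library had counts of each. In the 5 libraries without cKO replicate 3, apparent embryo sex and genotype therefore cannot be told apart. The part of embryo sex in the results was not tested. Of 17 ureteric epithelium markers, Ret among them, 6 fell and none rose (10 fell without cKO replicate 3), and their summed level was 7101 to 8098 CPM in cKO and 11906 to 13434 CPM in controls. All 4 tested markers of smooth and cardiac muscle rose (summed 136 to 282 CPM in cKO and 5.08 to 10.8 CPM in controls), as did 2 of 7 of nephron epithelium and podocytes (summed 279.6 to 377 CPM in cKO and 145 to 191 CPM in controls; 4 of 9 without cKO replicate 3). Over all tested genes the share that fell was 3.59% with all libraries and 14.9% without cKO replicate 3, and the share that rose was 3.52% and 13.7%. None of the 4 tested nephron progenitor markers, 6 of stroma, 1 of endothelium and 5 of blood was called with all libraries, with 1, 0, 0 and 0 at an unadjusted p under 0.05. The nephron progenitor marker Cited1 and the endothelial marker Tek rose without cKO replicate 3 (edgeR adjusted p = 0.0123 and 0.0249). Control replicate 3 held 443 CPM of summed blood markers, mostly Hba-a1, against 41.7 to 97.5 CPM in every other library. In sorted bulk cells, fewer cells of a type and less RNA per cell cannot be told apart, and the part of these markers in the results below was not tested.

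No promoter mark was measured here. The promoter windows of the most abundant receptor and of the receptor called most often below are shown because ASH2L complexes act at promoters, where many vertebrate genes hold clusters of the dinucleotide CG. RefSeq (GRCm38.p6, not the GRCm39 of the submitters' processing notes) gave promoter windows from 250 bases before to 50 bases after the start for 8 of the 10 genes. Erbb2 is shown at chr11:98412234-98412533 on the plus strand and Fgfr2 at chr7:130266759-130267058 on the minus strand, 5′ to 3′, with each CG in capitals.
Erbb2: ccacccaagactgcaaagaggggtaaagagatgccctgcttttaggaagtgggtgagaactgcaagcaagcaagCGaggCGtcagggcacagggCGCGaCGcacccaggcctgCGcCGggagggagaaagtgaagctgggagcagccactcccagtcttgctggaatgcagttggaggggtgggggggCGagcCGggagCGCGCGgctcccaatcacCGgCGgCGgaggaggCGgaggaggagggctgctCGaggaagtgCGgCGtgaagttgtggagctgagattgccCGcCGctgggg
Fgfr2: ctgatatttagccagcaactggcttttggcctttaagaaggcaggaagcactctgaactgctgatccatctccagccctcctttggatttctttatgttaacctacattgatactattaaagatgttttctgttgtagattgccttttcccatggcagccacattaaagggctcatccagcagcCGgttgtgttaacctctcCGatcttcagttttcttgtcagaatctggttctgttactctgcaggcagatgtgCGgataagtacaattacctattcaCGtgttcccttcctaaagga
The Erbb2 window held 21 CG and the Fgfr2 window 4 CG. CG reads the same on both strands. Over 32851 such windows of 300 bases, 94.6% held at least 1 CG and the median was 7. The other windows held 15 CG for Egfr, 20 for Fgfr4, 24 for Frs2, 26 and 30 for the 2 starts of Fgfr3, 34 for Met and 37 for Fgfrl1. Fgfr1 and Erbb3 had no entry. The Fgfr2 window was therefore the only one of these 9 below the median, and it is 1 annotated start of a gene that can have others.

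Levels of different genes were compared per length, with the FPKM values deposited by the authors. Fgfr2 was the highest of the 10 genes in both groups, with 79.6 ± 21.0 FPKM in cKO and 109 ± 13.9 FPKM in controls (SD, n = 3 each). Its lowest library in each group lay above every library of Erbb2, which came next with 18.4 ± 7.18 FPKM in cKO and 31.8 ± 4.37 FPKM in controls. Fgfr2 stood at percentile 95.1 of all listed genes by mean control FPKM, Erbb2 at 82.6 and Fgfr1 at 73.9.

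Below these in controls came Fgfr1 (17.9), Met (13.1), Erbb3 (10.5), Fgfr4 (8.42), Fgfrl1 (5.94) and Frs2 (2.89 mean FPKM). The ranges of Fgfr1, Met, Erbb3 and Fgfr4 each overlapped that of the next gene in this order, so the order from Fgfr1 to Fgfrl1 is not resolved beyond the spread. Frs2 lay apart from both of its neighbours. Fgfr3 (0.630 ± 0.545) and Egfr (0.519 ± 0.116 mean FPKM) were lowest and overlapped. In cKO the order was the same down to Erbb3, but Egfr was above Fgfr3 in every library, at 0.714 to 1.91 FPKM against 0 to 0.313 FPKM.

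**Figure D1:**
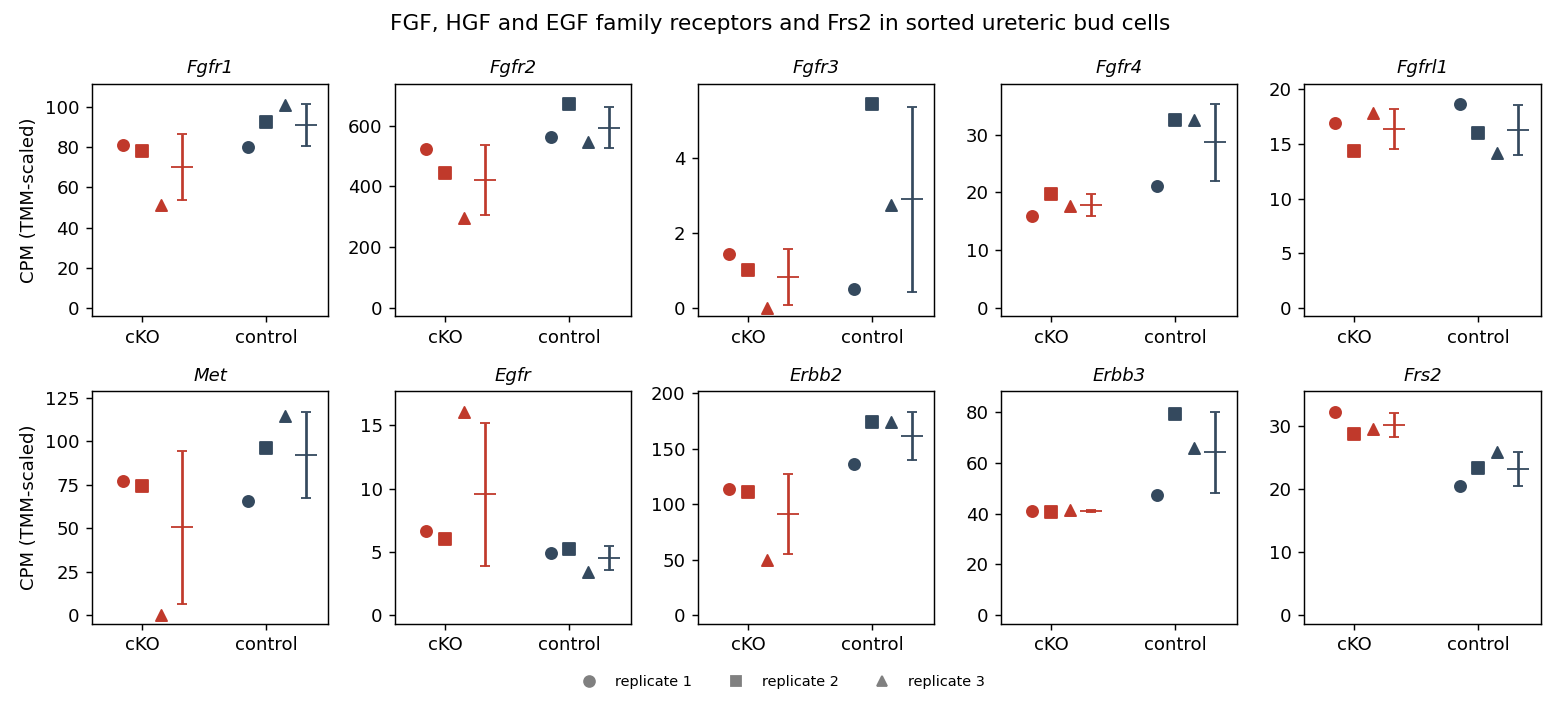
Level of each gene in every library in CPM scaled by TMM factors (vertical axes, linear and different in each panel), cKO in red on the left and controls in dark blue on the right. Symbols give the replicate number and bars the mean ± SD of 3 libraries. All cKO points lie below all control points for Fgfr2, Fgfr4, Erbb2 and Erbb3 and above them for Egfr and Frs2, and Met is at 0 in cKO replicate 3.

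None of the 10 genes was called with all 6 libraries by edgeR at a Benjamini-Hochberg adjusted p under 0.05, where 7.11% of the 13047 tested genes were called. At an unadjusted p under 0.05 there were 3 (Erbb2, Erbb3 and Fgfr4), against 23.1% of all tested genes. DESeq2 also called none, and limma-voom called none without and 2 with library weights (Erbb2 and Erbb3). The fitted log2 fold change was negative for 7 genes and positive for 3, with a median of -0.57 beside -0.04 over all tested genes. In 4 of the 10 every cKO library was below every control library and in 2 every cKO library was above. Over all tested genes these shares were 20.7% and 16.7%, together 37.4%. Without cKO replicate 3, Erbb2 and Erbb3 fell and none rose, while 14.9% of 13660 genes fell and 13.7% rose (28.5% in all). The 2 of 10 is near that background. In those 5 libraries 4 of the 10 genes were lower and 2 higher in both cKO libraries than in every control, beside 26.5% and 29.1% of all tested genes (55.6% in all). The median was then -0.30, beside 0.01 over all genes.

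**Figure D2:**
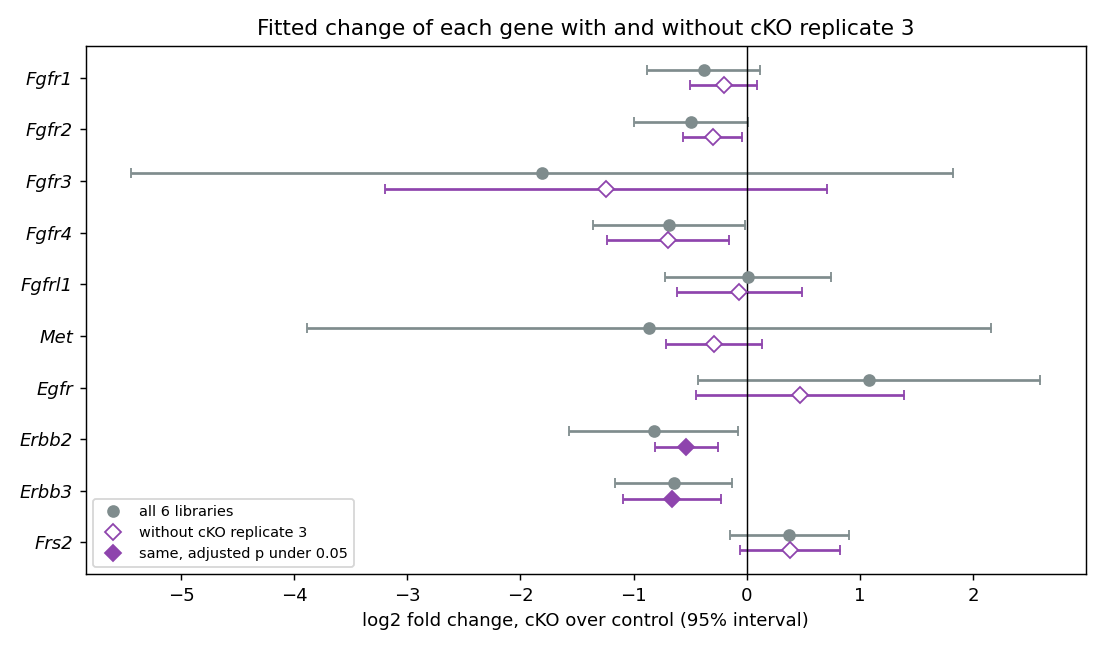
Fitted log2 fold change of cKO over control (horizontal axis) with its 95% interval for each gene, from all 6 libraries (grey circles) and without cKO replicate 3 (purple diamonds, filled where the edgeR adjusted p is under 0.05). The intervals of Met and Fgfr3 narrow without that library, and Erbb2 and Erbb3 are the filled points.

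Erbb2 and Erbb3, the partner receptors of the EGF family, were both lower in cKO. Erbb2 had 113, 111 and 49.6 CPM in cKO replicates 1, 2 and 3, against 136, 174 and 174 CPM in controls. The groups differed by -0.82 on the log2 scale (SE 0.314, edgeR adjusted p = 0.18). Every cKO library lay below every control, and cKO replicate 3 had less than either of the others. Without it Erbb2 fell by 0.54 on the log2 scale (SE 0.129, 95% interval -0.81 to -0.26, edgeR adjusted p = 0.00724). This call held when any 1 control was left out as well, with a highest adjusted p of 0.0368. Mien1, which overlaps Erbb2 in the RefSeq gene table, had a log2 fold change of -0.20 (SE 0.159). Whether counting used the strand is not stated, so reads of these overlapping genes may not have been kept apart.

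Erbb3 had 41.1, 40.4 and 41.2 CPM in cKO replicates 1, 2 and 3, against 47.2, 79.0 and 65.8 CPM in controls. The cKO libraries were nearly level and the spread was in the controls, of which replicate 1 came close to cKO. It had a log2 fold change of -0.65 (SE 0.217, edgeR adjusted p = 0.133). Without cKO replicate 3 Erbb3 fell by 0.66 on the log2 scale (SE 0.202, edgeR adjusted p = 0.0254). That call was lost without control replicate 2 (adjusted p = 0.117) or control replicate 3 (0.0688) as well.

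Egfr, which binds EGF and TGF-alpha, was low. It had 65, 59 and 161 counts in cKO and 50, 55 and 35 counts in controls, or 9.57 ± 5.64 CPM in cKO and 4.52 ± 0.966 CPM in controls (SD, n = 3 each). All cKO libraries lay above all controls, but most of the difference came from cKO replicate 3, which had 2.54 times the mean CPM of the other cKO libraries. On the log2 scale the fitted change was 1.08 (SE 0.636, edgeR adjusted p = 0.377), and 0.47 (SE 0.426, adjusted p = 0.447) without that library. Erbb4, the remaining ERBB receptor, had 41, 37 and 133 counts in cKO and 56, 54 and 26 in controls. It differed by 0.69 on the log2 scale (SE 0.767, edgeR adjusted p = 0.672), and -0.15 without cKO replicate 3, so its direction rests on that library.

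Summed over Egfr, Erbb2, Erbb3 and Erbb4, ERBB receptor transcripts were 26.8 ± 6.18 FPKM in cKO and 43.0 ± 6.91 FPKM in controls (SD, n = 3 each). All cKO libraries were below all controls (two-sided exact permutation p = 0.1, the smallest that 3 against 3 can give). Most of this sum was Erbb2, itself lower in every cKO library, so this is no separate result. In CPM, the groups did not overlap for 37.4% of all tested genes. Erbb2 made up 74.4%, 74.5% and 51.7% of this sum in cKO replicates 1, 2 and 3 and 75.8%, 71.3% and 75.2% in controls. The share of Egfr was 2.54%, 2.34% and 9.73% in cKO and 1.59%, 1.25% and 0.860% in controls (exact permutation p = 0.1). In both the departure was mainly that of cKO replicate 3, without which the mean share in cKO was 74.4% for Erbb2 and 2.44% for Egfr and the mean ERBB sum 30.3 FPKM.

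Fgfr2, the main FGF receptor of the ureteric epithelium, had 524, 446 and 295 CPM in cKO replicates 1, 2 and 3, against 565, 672 and 545 CPM in controls. Every cKO library was below every control, and cKO replicate 3 was lowest. Fitted on the log2 scale, Fgfr2 differed by -0.49 (SE 0.212, 95% interval -1.0 to 0.01, edgeR adjusted p = 0.225), and -0.30 (SE 0.119, adjusted p = 0.0747) without cKO replicate 3. On those 5 libraries limma-voom called Fgfr2 (adjusted p = 0.0488). Fgfr4, best known as the FGF receptor of bile acid control in liver, had 15.9, 19.7 and 17.7 CPM in cKO and 21.0, 32.5 and 32.5 CPM in controls. The groups did not overlap, and control replicate 1 was nearest to cKO. Over all libraries Fgfr4 had a log2 fold change of -0.69 (SE 0.282, edgeR adjusted p = 0.205). It was -0.70 (SE 0.25, edgeR adjusted p = 0.0523) without cKO replicate 3.

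Fgfr1, which is known for its part in the metanephric mesenchyme, had 81.0, 78.3 and 51.1 CPM in cKO and 80.3, 92.4 and 101 CPM in controls. The groups overlapped at cKO replicate 1, with a log2 fold change of -0.38 (SE 0.209, edgeR adjusted p = 0.344). Fgfr3 was low, with 14, 10 and 0 counts in cKO and 5, 57 and 28 counts in controls. The controls spread widely around all cKO values except the 0, and its 95% interval on the log2 scale ran from -5.44 to 1.82. Leaving out cKO replicate 3 gave log2 fold changes of -0.21 for Fgfr1 and -1.24 for Fgfr3 (edgeR adjusted p = 0.29 and 0.338). Fgfrl1, needed for kidney formation in mice, did not separate the groups, with 166, 141 and 179 counts in cKO and 190, 168 and 145 counts in controls, or 16.4 ± 1.84 CPM in cKO and 16.3 ± 2.25 CPM in controls (SD, n = 3 each). Its log2 fold change was 0.01 (95% interval -0.72 to 0.74, edgeR adjusted p = 0.99) and changed sign in 5 of 16 alternative settings.

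The make-up of the FGF receptor pool was close in the 2 groups. Fgfr2 took 82.2%, 79.4% and 78.1% of the summed Fgfr1 to Fgfr4 FPKM in cKO replicates 1, 2 and 3 and 82.5%, 81.1% and 77.1% in controls. The groups overlapped, and the means differed by -0.321 percentage points (exact permutation p = 0.9). The sum itself was 99.3 ± 24.2 FPKM in cKO and 136 ± 15.8 FPKM in controls, lower in every cKO library than in every control (exact permutation p = 0.1). Most of this sum was Fgfr2, itself lower in every cKO library, so this is no separate result. Without cKO replicate 3 the cKO mean of this sum was 113 FPKM and that of the Fgfr2 share 80.8%. Frs2, the docking adaptor, had 32.2, 28.6 and 29.4 CPM in cKO and 20.4, 23.3 and 25.8 CPM in controls. It was higher in every cKO library, with a log2 fold change of 0.38 (SE 0.222, edgeR adjusted p = 0.378), and of 0.38 (SE 0.206, adjusted p = 0.187) without cKO replicate 3.

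**Figure D3:**
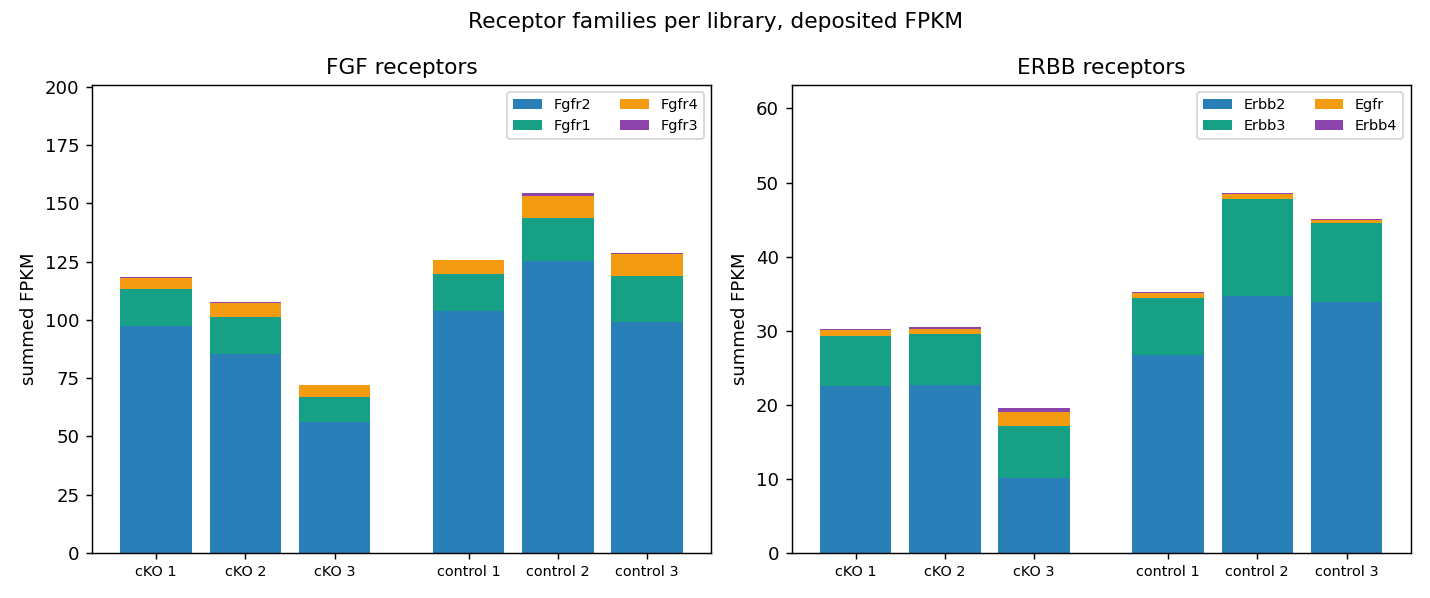
Deposited FPKM summed over the FGF receptors (left) and ERBB receptors (right) in each library, cKO libraries first, with linear vertical axes from 0 and 1 colour per gene. The sums are lower in every cKO library than in every control, and the Fgfr2 share stays between 77.1% and 82.5%.

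Met, the HGF receptor, had 757, 733 and 0 counts in cKO replicates 1, 2 and 3 and 666, 1012 and 1171 counts in controls. The 2 cKO libraries with reads, at 77.3 and 74.4 CPM, lay within the control range of 65.4 to 114 CPM. With all libraries the log2 fold change was -0.86 with a 95% interval of -3.89 to 2.16 (edgeR adjusted p = 0.755). Without cKO replicate 3 it was -0.29, with an interval of -0.71 to 0.14 (adjusted p = 0.304). Leaving out control replicate 1 as well gave -0.48 (adjusted p = 0.0251), the 1 setting in which Met was called. The count of 0 stands in the library in which 12.4% of otherwise detected genes are listed at 0.

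The FGF and HGF ligands of the mesenchyme had few or no counts in the sorted cells. Fgf10 had 2 counts over the cKO libraries and 0 over the controls, Fgf7 had 0 in cKO and 3 in controls, and Hgf had 8 in cKO and 3 in controls. A floor of 3 counts over a group is 0.101 CPM in cKO and 0.0970 CPM in controls. Of 5 tested FGF ligands, 1 rose and none fell, where 3.52% of all tested genes rose and 3.59% fell. Fgf18 had 28.3, 30.0 and 32.7 CPM in cKO and 9.13, 5.90 and 8.02 CPM in controls, and it rose (log2 fold change 1.98, SE 0.307, edgeR adjusted p = 0.0159). Fgf9, which is made by the ureteric bud itself, had 27.6 ± 21.8 CPM in cKO and 22.1 ± 0.971 CPM in controls (SD, n = 3 each). Its log2 fold change was 0.32 with all libraries and -0.56 without cKO replicate 3 (edgeR adjusted p = 0.779 and 0.0876).

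Of 9 tested EGF and neuregulin ligands, 1 rose and none fell, where 3.52% of all tested genes rose and 3.59% fell. Their median log2 fold change was 0.95, beside -0.04 over all tested genes. Epgn, which encodes the EGFR ligand epigen, had 57, 93 and 148 counts in cKO and 0, 0 and 3 in controls (edgeR adjusted p = 0.0431). The ratio of summed counts, scaled to library size, was 104 with a 95% interval of 35.1 to 505 for counting error only. Hbegf, a heparin-binding EGFR ligand, was the most abundant of these with 286 ± 89.5 CPM in cKO and 131 ± 51.2 CPM in controls. It was not called (log2 fold change 1.12, SE 0.353, edgeR adjusted p = 0.115), although every cKO library was higher. Without cKO replicate 3, 4 of 8 FGF ligands rose (Fgf1, Fgf3, Fgf17 and Fgf18) and none fell. In that fit 2 of 10 EGF and neuregulin ligands rose and none fell, and 13.7% of all tested genes rose and 14.9% fell. Fgf3 had 15, 27 and 111 counts in cKO and 0 in each control. Its edgeR adjusted p was 0.0673 with all libraries and 0.00512 without cKO replicate 3. Fgf1 and Fgf17 each had 0 counts in cKO replicate 3. Neither HGF nor the related ligand MST1 was tested, since both genes had too few counts, and Mst1r, the MST1 receptor gene, had 15 counts over cKO and 4 over controls.

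**Figure D4:**
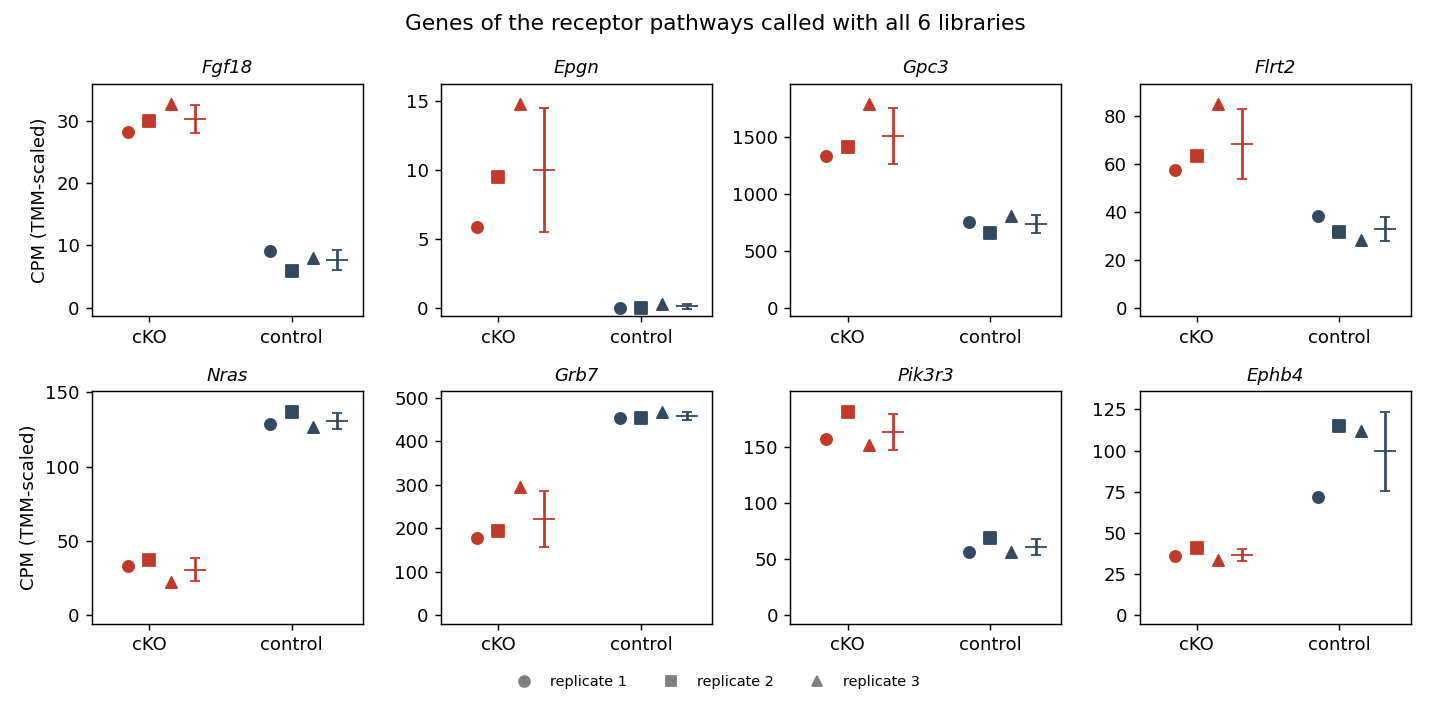
The 8 genes of the pathway lists that were called with all 6 libraries, in CPM scaled by TMM factors (vertical axes, linear and different in each panel), cKO in red on the left and controls in dark blue on the right. Symbols give the replicate number and bars the mean ± SD of 3 libraries, and the groups do not overlap in any panel.

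Among proteins that help receptors at the cell surface, 2 of 12 tested genes rose and none fell. Without cKO replicate 3, 3 rose and 2 fell. Over all tested genes 3.52% rose, 3.59% fell and 23.1% had an unadjusted p under 0.05. Without that library 13.7% of all tested genes rose and 14.9% fell. Gpc3, a glypican that carries heparan sulfate, had 1332, 1408 and 1789 CPM in cKO and 752, 653 and 807 CPM in controls (log2 fold change 1.03, SE 0.142, edgeR adjusted p = 0.0115). Flrt2, of a family of transmembrane proteins that bind FGF receptors, had 57.2, 63.2 and 84.9 CPM in cKO and 38.4, 31.6 and 28.4 CPM in controls (1.06, SE 0.22, adjusted p = 0.0396). None of 11 genes of heparan sulfate synthesis was called with all libraries, and 1 had an unadjusted p under 0.05. That gene was Extl3, which starts heparan sulfate chains (-0.69, SE 0.196, edgeR adjusted p = 0.0888). Extl3 (adjusted p = 0.0178) and Ndst1 fell and Ext1 rose when cKO replicate 3 was left out. None of 10 ligand-activating proteases and their inhibitors was called either, with 2 at an unadjusted p under 0.05. The smallest p was that of Spint1, an inhibitor of the HGF activator (-0.33, SE 0.0906, adjusted p = 0.0797). In the same 5 libraries Spint1 fell (adjusted p = 0.0343) and Adam17 rose. DESeq2 called some pathway genes that edgeR did not, 25 in all against 8.

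Inside the cell, 2 of 24 tested adaptors and members of the RAS-ERK cascade fell and none rose with all libraries. Without cKO replicate 3, 3 fell and 3 rose (Araf, Shc1 and Gab2). For this and the next 2 lists, the shares over all tested genes were 3.59% fell and 3.52% rose, and 14.9% and 13.7% without that library. An unadjusted p under 0.05 was found for 23.1% of all tested genes with 6 libraries. Nras, 1 of the RAS GTPase genes, had 33.2, 37.2 and 22.2 CPM in cKO and 128, 137 and 127 CPM in controls, and fell by 2.08 on the log2 scale (SE 0.21, edgeR adjusted p = 0.00603). Grb7, an adaptor that binds ERBB2 and RET, had 177, 194 and 295 CPM in cKO and 455, 453 and 468 CPM in controls, and fell by 1.05 (SE 0.195, adjusted p = 0.0285). Of 11 genes of the PI3K branch, 1 rose: Pik3r3, a regulatory subunit, with 157, 182 and 152 CPM in cKO and 56.5, 69.3 and 56.6 CPM in controls (log2 fold change 1.43, SE 0.14, edgeR adjusted p = 0.0057). Of the 11, 2 rose and 1 fell without cKO replicate 3. Both Nras and Pik3r3 were called without each library in turn. Of the 14 genes of receptor turnover and inhibition none was called by edgeR, 2 had an unadjusted p under 0.05, and the smallest p was that of Errfi1, a feedback inhibitor of EGFR family kinases (0.76, SE 0.224, adjusted p = 0.097). With cKO replicate 3 left out, 1 of the 14 rose and 1 fell, and Errfi1 was not called (adjusted p = 0.0813).

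Of 31 other receptor tyrosine kinase genes tested, 1 fell and none rose, with a median log2 fold change of -0.36. In the fit that leaves out cKO replicate 3, 9 of 35 fell and 5 rose, beside 14.9% and 13.7% of all tested genes. The median was then -0.22, beside 0.01 over all tested genes. Ephb4, an ephrin receptor gene, had 35.9, 40.6 and 33.4 CPM in cKO and 71.9, 115 and 112 CPM in controls (-1.44, SE 0.218, edgeR adjusted p = 0.015). Ret, the GDNF receptor gene of the bud, had 294 ± 103 CPM in cKO and 635 ± 114 CPM in controls (SD, n = 3 each; log2 fold change -1.11, edgeR adjusted p = 0.0666). Ret fell without cKO replicate 3 (-0.86, SE 0.138, adjusted p = 0.000497). Over all lists together, 5 of 127 tested genes rose and 3 fell, beside 3.52% and 3.59% of all tested genes. Without cKO replicate 3 these numbers were 22 and 19 of 135, beside 13.7% and 14.9%. All 8 genes called with 6 libraries were also called without that library. Of these 8 genes, Nras and Pik3r3 kept the call in each of the 6 fits with 1 library left out. Gpc3 kept it in 3 of those fits and Ephb4 in 2. Fgf18, Epgn, Grb7 and Flrt2 kept it in 1, the fit without cKO replicate 3. Without control replicate 3, the edgeR adjusted p was 0.0879 for Fgf18, 0.0840 for Ephb4, 0.124 for Grb7 and 0.176 for Flrt2. For Epgn it was 0.166 without control replicate 2 and for Gpc3 0.0666 without control replicate 1.

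Genes whose level moved most like the 3 most abundant of the 10 genes over the 6 libraries were found by the root mean square difference of log2 CPM after centring each gene on its own mean. Candidates were 9552 genes with a mean of at least 10 CPM, leaving out predicted gene models and other provisional gene names. Nearest to Fgfr2 were Arrdc3 (0.019), Ivns1abp (0.045) and Hnrnph3 (0.054), beside a median of 0.49. Nearest to Erbb2 were Alg14 (0.069), Phf13 (0.072) and Ncapd2 (0.092), and nearest to Fgfr1 were Inpp1 (0.042), Cwc25 (0.042) and Safb (0.049). None of these 9 genes was called by edgeR with all libraries, and the smallest adjusted p was 0.0985, for Ncapd2. Ncapd2, Alg14 and Hnrnph3 fell without cKO replicate 3. The 9 genes were picked for profiles like those of Fgfr2, Erbb2 and Fgfr1 in these same libraries. Whether they were called therefore largely follows from that choice and is no separate result.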

How the data were processed

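A TruSeq Stranded mRNA kit was used, per the labels' protocols, and whether counting used the strand is not stated. The authors deposited raw read counts per gene and FPKM values. The submitters' processing notes list DESeq, Cufflinks, HTSeq and HISAT2, with build GRCm39. Deposited FPKM equals the counts divided by 1 factor per gene and 1 per library (largest relative deviation 2.21e-07), so it is no independent measurement.

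Counts were tested with edgeR 4.0.16 in R 4.3.3: filterByExpr, TMM scaling, a quasi-likelihood F-test (robust) with group as the only term, and Benjamini-Hochberg adjustment over all 13047 genes tested. SE is the log2 fold change divided by the square root of F. Alternatives used DESeq2 1.42.0, limma 3.58.1 and log2(FPKM + 1 or + 0.1). Steps were tested on simulated counts. No 2 replicates agreed within sampling noise (chi-square over its degrees of freedom was at least 9.90).

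The 10 genes and the lists were chosen with earlier results of these data known. Pathway genes named are up to 4 called genes of each list, or else the one with the smallest p, plus 6 fixed genes (Erbb4, Mst1r, Hgf, Fgf7, Fgf9, Fgf10). Hbegf, Ret, Mst1, Mien1, Ddx3y, Uty, Kdm5d, Eif2s3y and Hba-a1 were named after their values were seen. So were the genes named as called only without cKO replicate 3 and the neighbouring genes.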

Additional observations from a re-analysis of the deposited data

How the results depend on the processing

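The number of these 10 genes called was 0 with 6 libraries and in 14 of 16 alternatives. It was 2 with limma-voom and library weights, and 0 to 2 with 1 library left out. Calls over all genes numbered 928, against 2049 with DESeq2, 3363 with library weights, 1405 with log2(FPKM + 1), 23 with the replicate number as a block and 121 to 3897 with 1 library left out. Pathway calls numbered 8, against 25 with DESeq2, 32 with library weights, 0 with the replicate block and 2 to 41 with 1 library left out. The replicate numbers share no stated litter or day. Deviations of same-numbered libraries from their group mean correlated at -0.022, 0.025 and -0.0015 across genes. With 3 libraries a group and cKO replicate 3 apart from the others, these values cannot exclude a shared litter or day. Settings on the 5 libraries without cKO replicate 3 were added after seeing the data. There 2 of the 10 genes were called, against 3 with limma-voom (Fgfr2 added), 1 with the replicate block and 1 to 4 with a control also left out. The Fgfrl1 log2 fold change of 0.01 was -0.042 with library weights and -0.087 to 0.113 with 1 library left out. On 5 libraries it was -0.067, and -0.157 to 0.043 with a control left out. That of Erbb4 was -0.0098 with library weights and -0.15 to 0.99 with 1 library left out, and on 5 libraries -0.43 to 0.038 with a control left out. That of Fgf9 was -0.51 with library weights and -0.56 to 0.64 with 1 library left out. The other 9 of the 10 genes kept their direction in each setting run. The Fgfr2 share differed by -1.91 to 0.831 percentage points and the Egfr share by 1.21 to 4.90 with 1 library left out. The cause of these changes was not tested. Counts of 0 to 161 per library limit Fgfr3 and Egfr.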

Other observations

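The genes next to these receptors on the chromosome were looked up after the receptors' results were known, as the 2 nearest listed genes on each side in the RefSeq gene table. Grb7, which fell, lies next but one to Erbb2, with Mien1 between them and Pgap3 on the other side. Mien1 (log2 fold change -0.20, edgeR adjusted p = 0.523) and Pgap3 (0.28, adjusted p = 0.583) were not called. Cav1, the caveolin gene beside Met, rose to a mean of 193 CPM in cKO, against 72.7 CPM in controls (1.41, SE 0.134, adjusted p = 0.0057), while Cav2 (-0.24, adjusted p = 0.309) and Capza2 (-0.13, adjusted p = 0.604) were not called. Tacc3, a spindle gene beside Fgfr3, averaged 98.9 CPM in cKO and 221 CPM in controls and fell (log2 fold change -1.16, SE 0.202, adjusted p = 0.0234). The NSD histone methyltransferase genes lie near 3 of the FGF receptor genes. Nsd1 near Fgfr4 had a log2 fold change of -0.69 (edgeR adjusted p = 0.058), Nsd2 near Fgfr3 of -0.60 (0.384) and Nsd3 near Fgfr1 of -0.17 (0.835). None of these 3 was called with 6 libraries. Grb7, Cav1 and Tacc3 were the only neighbours called there, where 7.11% of all tested genes were called. Whether neighbours were called more often than other genes was not tested. Without cKO replicate 3, Grb7, Cav1 and Tacc3 kept their calls and Nsd1 fell by 0.85 (edgeR adjusted p = 0.000718). Letm1 near Fgfr3, Zfp346 and Rab24 near Fgfr4, Vstm2a near Egfr and Pnmt near Erbb2 rose in that fit. The share called over all tested genes was then 28.5%.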
